A study of Homo sapiens with 42 samples.

Results

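MS41 was tested in SEMK2, a human B-cell precursor leukaemia line that carries a fusion of MLL (KMT2A) with AF4. The 6 SEMK2 libraries, chosen by their labels, are 3 from cells given MS41 and 3 from cells given DMSO, the solvent control, out of 42 libraries in the series. Both SEMK2 groups were labelled wild type. MS41 was used at 100 nM; the treatment protocol covers 6 and 24 h and does not say which time applied to SEMK2. For comparison, 12 libraries of MV4;11, a myeloid leukaemia line that also carries MLL-AF4, were used: MS41 (100 nM) for 24 h, MS41 for 6 h, and DMSO at both times, with 3 libraries each, also labelled wild type. Each line is a single cell line, and the labels do not say whether replicates were separate cultures, so p-values measure the spread between these libraries, which may be partly technical.

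MS41 is a degrader of ENL, the protein product of MLLT1. ENL reads acetylated and crotonylated histones through its YEATS domain and links chromatin to the elongation machinery, which releases paused RNA polymerase II. MLL fusions recruit the same machinery to a set of genes that includes the posterior HOXA genes and MEIS1, which keep leukaemia cells in a progenitor state. The N-terminal part of MLL that remains in the fusions holds a CXXC domain, which binds unmethylated CpG dinucleotides.

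Stretches of 250 bases upstream of the start of 6 of the called genes described below, chosen after their values were seen, are shown for their CpG content, since CpG is what the CXXC domain reads. They come from RefSeq (GRCh38.p14), run 5′ to 3′ on the strand of the gene, and carry each CpG in capitals. The start is that of RefSeq, while the gene spans printed below come from GENCODE 29. The stretches of HOXA9, HOXA10 and PROM1 therefore lie inside those spans.
HOXA10, chr7:27179862-27180111, minus strand: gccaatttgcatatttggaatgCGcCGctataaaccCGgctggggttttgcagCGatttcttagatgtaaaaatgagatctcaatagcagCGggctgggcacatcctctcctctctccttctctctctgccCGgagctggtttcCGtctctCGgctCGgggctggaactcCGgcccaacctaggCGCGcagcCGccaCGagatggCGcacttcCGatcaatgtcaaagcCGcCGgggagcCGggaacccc
HOXA9, chr7:27165538-27165787, minus strand: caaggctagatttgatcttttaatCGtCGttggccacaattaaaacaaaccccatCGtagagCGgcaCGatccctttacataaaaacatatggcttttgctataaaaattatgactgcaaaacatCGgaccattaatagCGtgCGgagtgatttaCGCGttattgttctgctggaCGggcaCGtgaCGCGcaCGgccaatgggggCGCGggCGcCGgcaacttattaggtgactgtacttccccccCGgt
CDK6-AS1, chr7:92836233-92836482, plus strand: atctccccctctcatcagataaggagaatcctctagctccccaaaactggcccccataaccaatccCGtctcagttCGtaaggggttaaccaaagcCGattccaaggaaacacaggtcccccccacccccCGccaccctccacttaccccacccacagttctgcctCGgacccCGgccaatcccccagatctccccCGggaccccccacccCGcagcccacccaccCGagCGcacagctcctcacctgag
PROM1, chr4:16084024-16084273, minus strand: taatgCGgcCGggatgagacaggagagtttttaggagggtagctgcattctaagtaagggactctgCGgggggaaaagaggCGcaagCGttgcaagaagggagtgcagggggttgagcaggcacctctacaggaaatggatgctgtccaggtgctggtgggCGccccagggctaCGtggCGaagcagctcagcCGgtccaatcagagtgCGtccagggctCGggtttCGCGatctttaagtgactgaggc
CPEB2, chr4:15002231-15002480, plus strand: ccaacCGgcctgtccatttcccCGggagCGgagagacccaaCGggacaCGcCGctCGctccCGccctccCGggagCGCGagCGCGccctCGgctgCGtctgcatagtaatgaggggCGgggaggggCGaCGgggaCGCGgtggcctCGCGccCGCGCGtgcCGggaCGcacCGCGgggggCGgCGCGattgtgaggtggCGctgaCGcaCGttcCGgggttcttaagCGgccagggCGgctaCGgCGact
BMF, chr15:40108880-40109129, minus strand: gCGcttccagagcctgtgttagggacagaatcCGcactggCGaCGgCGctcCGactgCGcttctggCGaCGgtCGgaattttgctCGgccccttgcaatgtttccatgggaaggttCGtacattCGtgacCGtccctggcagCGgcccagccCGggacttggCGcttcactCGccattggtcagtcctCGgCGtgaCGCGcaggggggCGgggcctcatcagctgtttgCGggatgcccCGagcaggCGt

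The motif searched was CG, which reads the same on both strands. CPEB2 held 40 CpGs and BMF 26. HOXA9 held 20, HOXA10 held 19, PROM1 held 13 and CDK6-AS1 held 10. HOXA7 and ANXA2R, not printed, held 28 and 17; REEP3, TLR10 and GNAQ were not matched. All promoters of the table had a median of 11; 34.6% of them held at least as many CpGs as HOXA10 and 2.16% at least as many as CPEB2. Genes that rose with MS41 had a median of 15.5 CpGs (136 of 180 matched to a promoter) and genes that fell a median of 20 (82 of 111 matched). Genes tested at an average log2 CPM of at least 3 had a median of 22 (7633 of 9602 matched), so neither direction held more CpGs than well-expressed genes in general. A CpG count describes these letters and is not a measure of binding.

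RNA was measured as polyadenylated RNA by sequencing, and the deposited values are counts per gene. The total counts of the SEMK2 libraries, in units of 1000000, were 155.9 to 230.6. Levels are given in CPM, counts per 1000000 after scaling of the libraries, and differences as log2 fold changes of MS41 over DMSO with their standard error (SE). Adjusted p-values come from edgeR's quasi-likelihood test with Benjamini-Hochberg adjustment over all genes tested, and a gene was called below 0.05. The early B-lineage genes CD79A and PAX5 averaged 173 and 982 CPM with MS41, and 163 and 1019.6 CPM with DMSO, so the libraries carried the markers of the labelled lineage. Erythroid and megakaryocytic markers summed to 1.93 to 2.2 CPM with MS41 and 2.1 to 2.55 CPM with DMSO, and 7 of the 12 were at 0 in every library. Markers of T and NK cells summed to 107 to 119 CPM with MS41 and 97.7 to 117 CPM with DMSO, those of stromal and endothelial cells to 564 to 565 CPM and 549 to 579 CPM, and those of epithelial and neural cells to 8.11 to 9.62 CPM and 6.72 to 8.09 CPM. Among all these markers FN1 (0.36, stromal) and MAP2 (0.46, neural) were called, both higher with MS41.

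DMSO replicate 1 stood apart by 314 genes that were at least 10-fold higher there than in any other SEMK2 library, against 14 to 27 such genes in each of the others. They made up 0.031% of its counts. Leading ones were C3 (53.8 CPM, against 0.68 CPM in the next highest library), SPP1 (30.7 against 0.669 CPM) and C1QC (6.39 against 0.00604 CPM), which macrophages express. Others, such as LIN28A (3.7 against 0.0857 CPM) and PIGR (2.11 against 0.142 CPM), are not known as macrophage markers. The origin of these transcripts was not tested. Myeloid markers summed to 95 to 101 CPM with MS41 and to 93.5 to 138 CPM with DMSO, the highest value being that of DMSO replicate 1, and 1 of the 20 was at 0 everywhere. DMSO replicate 3 stood apart by base composition: the log2 level of the 10% of genes richest in G and C minus that of the poorest 10% was -0.176 there, relative to all 6 libraries, against 0.173 and 0.207 in DMSO replicates 1 and 2. The MS41 libraries lay between, at -0.0585, -0.00348 and -0.138. Results are therefore also given without each of these DMSO libraries and with this trend removed. The count below without DMSO replicate 3 rests on 2 DMSO libraries of similar base composition, and the part of base composition in it was not tested.

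MS41 lowered the posterior HOXA genes, PROM1 and CPEB2 in SEMK2 cells and raised REEP3 almost 4-fold, while most genes moved little. Of 21433 genes tested, 291 were called (1.36%), with 180 higher (0.84%) and 111 lower (0.518%). No called gene had overlapping groups; 18.2% of all tested genes had none either. Changes were small, with a median log2 size of 0.38 among the genes that rose and 0.29 among those that fell, and 24 genes reached a 2-fold change, 12 in each direction. Protein-coding genes made up 172 of the genes that rose and 97 of those that fell.

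The number of calls depended on which libraries were used. Without MS41 replicate 1, 2 or 3, it was 130, 119 or 100. Without DMSO replicate 1 or 2 it was 176 or 167, and without DMSO replicate 3 it was 2986. Removing the GC trend gave 997 calls (4.65%), with 467 higher (2.18%) and 530 lower (2.47%). Without DMSO replicate 1, 121 were higher (0.543%) and 55 lower (0.247%), and without DMSO replicate 3, 1292 were higher (5.83%) and 1694 lower (7.65%). The share of calls that were higher was 61.9%, against 46.8% with the GC trend removed and 43.3% without DMSO replicate 3, so no balance of direction can be read from it. Of the 291 genes, 164 were called in the same direction without DMSO replicate 1, without DMSO replicate 3 and with the GC trend removed, 110 higher and 54 lower, and 88 were called the same way under all 16 alternatives. The 12 largest rises and 12 largest falls named below were taken from these 164 only, so their place among them is no further check.

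**Figure D1:**
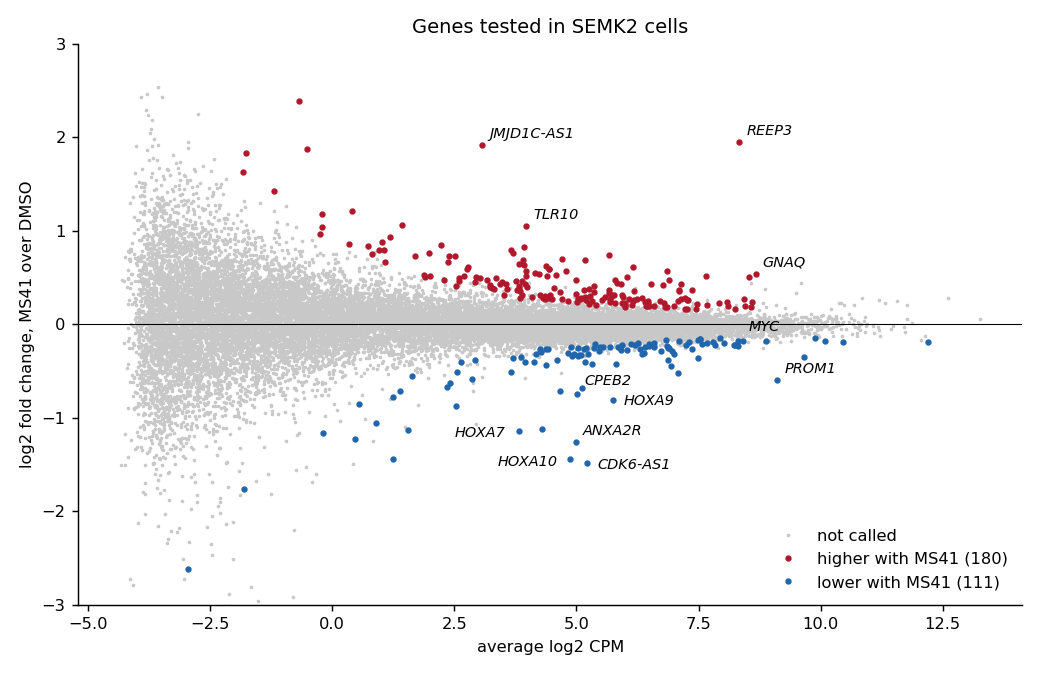
Log2 fold change of MS41 over DMSO (vertical axis) against average log2 CPM (horizontal axis) for the genes tested in SEMK2; 17 genes beyond a log2 change of 3 lie outside the axis. REEP3 lies at 1.95 and JMJD1C-AS1 at 1.92, and CDK6-AS1, HOXA10 and ANXA2R lie at -1.49, -1.44 and -1.26.

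The HOXA cluster lies on chromosome 7 (hg38) and encodes homeobox transcription factors. HOXA10 (27170591 to 27180261, minus strand) had 16.2, 15.7 and 15 CPM with MS41, and 41.4, 45.2 and 40.7 CPM with DMSO. All 3 MS41 libraries lay far below all 3 DMSO libraries, and the log2 fold change was -1.44 (SE 0.059, edgeR adjusted p = 2.6e-08). HOXA9 (27162435 to 27175180), the best known HOX partner of MEIS1 in leukaemia, had 39.6, 39.5 and 37.8 CPM with MS41, and 67.0, 66.9 and 70.9 CPM with DMSO. It fell by 0.81 (SE 0.045, edgeR adjusted p = 7e-07).

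HOXA7 had 8.97, 8.25 and 9.38 CPM with MS41, against 19.0, 20.5 and 19.3 CPM with DMSO, and fell by 1.14 on the log2 scale (SE 0.07, edgeR adjusted p = 1.4e-06). HOXA5 averaged 3.94 ± 0.323 CPM with MS41 and 6.25 ± 0.635 CPM with DMSO (SD, n = 3 each) and fell by 0.67 (edgeR adjusted p = 0.0064). HOXA6 averaged 1.03 ± 0.148 CPM with MS41 and 1.86 ± 0.207 CPM with DMSO and fell by 0.85 (edgeR adjusted p = 0.023). The last 2 calls were fragile. That of HOXA5 was lost without MS41 replicate 1 or 3 (adjusted p = 0.056 and 0.065), and that of HOXA6 without MS41 replicate 2 or 3 (0.14 and 0.15) or DMSO replicate 1 or 2 (0.11 and 0.07).

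HOXA3 averaged 3.11 ± 0.566 CPM with MS41 and 4.61 ± 0.124 CPM with DMSO, a log2 difference of -0.57 that did not pass (edgeR adjusted p = 0.055). It passed with the GC trend removed (0.018) and without DMSO replicate 3 (0.013). HOXA2, HOXA4 and HOXA13 averaged at most 0.426 CPM in either group and were not called. HOXA-AS3, a non-coding RNA antisense to HOXA5, HOXA6 and HOXA7, averaged 1.19 CPM with MS41 and 2.47 CPM with DMSO and fell by 1.06 (edgeR adjusted p = 0.014). Neighbours in the cluster overlap each other, HOXA9 and HOXA10 among them, and the strand setting of the counting is not stated, so the split of reads between overlapping genes is uncertain.

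**Figure D2:**
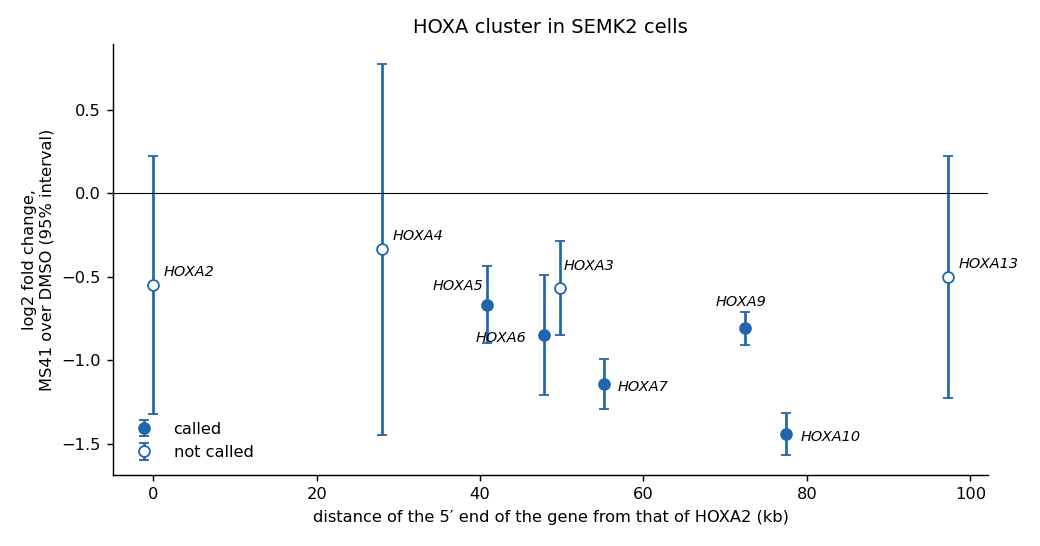
Log2 fold change of MS41 over DMSO in SEMK2 (vertical axis, with 95% interval) for 9 HOXA genes, against the distance of each 5′ end from that of HOXA2 in kb; filled points were called. The called genes, HOXA5 to HOXA10, lie between -0.67 and -1.44.

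MEIS1, the homeobox cofactor of HOXA9, had 109, 111 and 107 CPM with MS41, and 128, 130 and 133 CPM with DMSO. The groups did not overlap, and the fall was much smaller than that of HOXA10, at 0.26 on the log2 scale (SE 0.04, edgeR adjusted p = 0.003). Its call was lost without MS41 replicate 3 (adjusted p = 0.057). PBX3, another cofactor of HOXA9, averaged 52.6 ± 0.418 CPM with MS41 and 53.1 ± 1.29 CPM with DMSO and was not called (log2 difference -0.01, SE 0.04). Of 15 tested genes of the HOX and cofactor list, 6 fell and none rose, with a median log2 fold change of -0.55, against 0.00093 over all genes tested. With the GC trend removed 7 fell, without DMSO replicate 1 it was 5, and without DMSO replicate 3 it was 7. Of all genes tested 2.47%, 0.247% and 7.65% fell in these settings, against 0.518% with all 6 libraries. Like the other lists it was drawn up with earlier results of these data known.

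**Figure D3:**
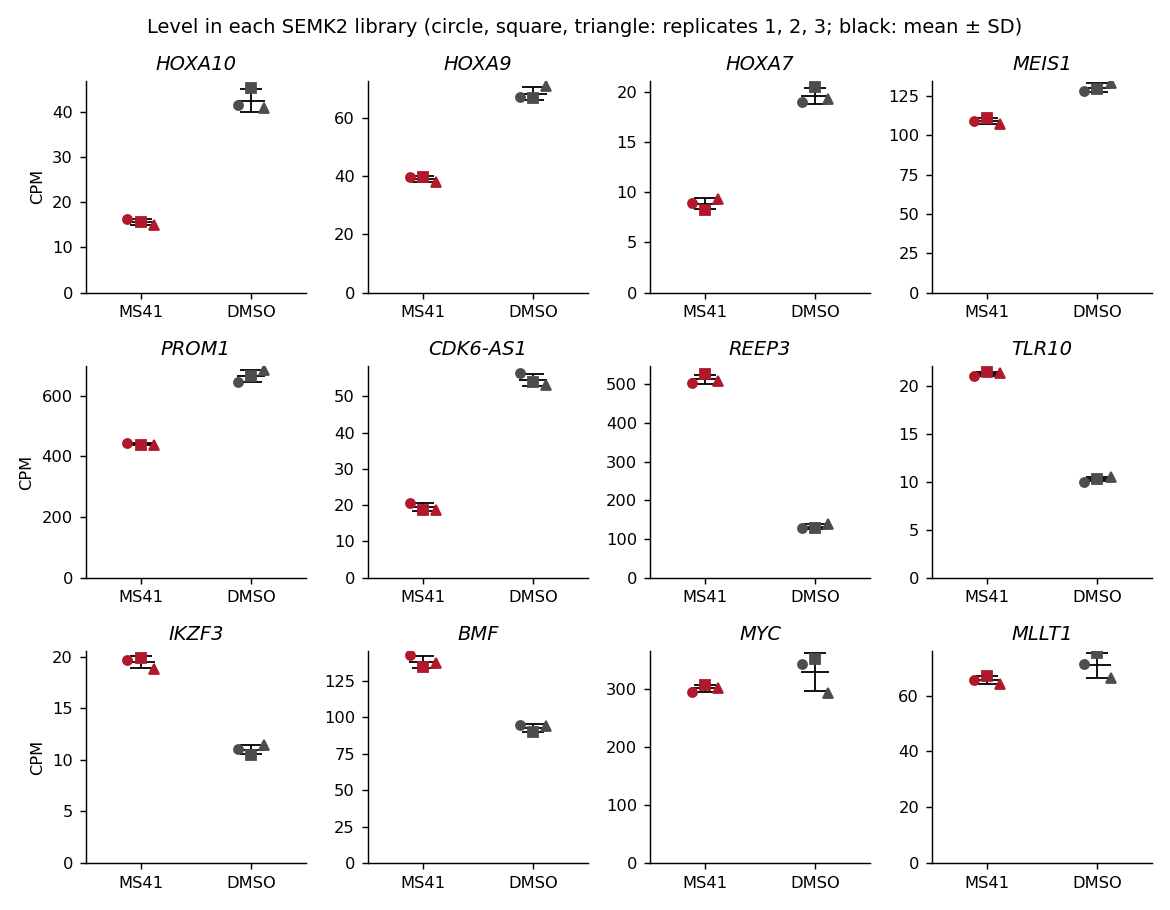
CPM in each SEMK2 library for 12 genes (vertical axes, from 0), with MS41 on the left and DMSO on the right; black marks give mean and SD. HOXA10, HOXA9, HOXA7, MEIS1, PROM1 and CDK6-AS1 are lower in all 3 MS41 libraries, REEP3, TLR10, IKZF3 and BMF are higher in all 3, and DMSO replicate 3 of MYC lies below every MS41 library.

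Genes other than HOX that MLL-AF4 is known to bind moved both ways. Of 30 tested, 9 fell and 4 rose, with a median of -0.12. With the GC trend removed 16 fell and 5 rose, without DMSO replicate 1 it was 7 and 4, and without DMSO replicate 3 it was 15 and 8. Of all genes tested 2.47%, 0.247% and 7.65% fell in these settings and 2.18%, 0.543% and 5.83% rose. With all 6 libraries 0.518% fell and 0.84% rose. PROM1, which encodes the stem-cell surface antigen CD133 (chromosome 4, 15963076 to 16084378), had 445, 437 and 438 CPM with MS41, and 644, 664 and 685 CPM with DMSO. All 3 MS41 libraries lay below the DMSO libraries (log2 fold change -0.59, SE 0.03, edgeR adjusted p = 8.5e-07). CPEB2, which encodes a regulator of mRNA translation, had 24.6, 24.8 and 23.6 CPM with MS41, against 40.3, 39.3 and 42.3 CPM with DMSO. It fell by 0.74 on the log2 scale (SE 0.05, edgeR adjusted p = 4.7e-06).

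CDKN1B, which encodes the cell cycle inhibitor p27, had 102, 104 and 104 CPM with MS41, and 138, 144 and 139 CPM with DMSO. All 3 MS41 libraries lay below all 3 DMSO libraries (log2 fold change -0.44, SE 0.04, edgeR adjusted p = 2.1e-05). LMO2 and SATB1, regulators of blood and lymphoid transcription, fell by 0.24 and 0.23 (edgeR adjusted p = 0.011 and 0.0029). TAPT1, PAN3, ARID2 and BCL11A fell by 0.24, 0.19, 0.19 and 0.17. ARID2 and BCL11A were each called in 11 of the 16 alternatives and were not among the 164 genes described above. ERG, a blood stem-cell transcription factor, had 103, 99.2 and 105 CPM with MS41, and 129, 134 and 138 CPM with DMSO, and fell by 0.38 (edgeR adjusted p = 0.00019).

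Several well-known genes of this set were not called. MYC had 295, 307 and 302 CPM with MS41, and 344, 353 and 293 CPM with DMSO. The third DMSO library lay below all 3 MS41 libraries, and the log2 difference was -0.13 (SE 0.06, edgeR adjusted p = 0.39). Without DMSO replicate 3, MYC fell by 0.21 (adjusted p = 4.2e-05), and with the GC trend removed over all 6 libraries it was again not called (-0.11, 0.24).

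MYB averaged 138 ± 2.47 CPM with MS41 and 153 ± 6.52 CPM with DMSO (log2 difference -0.15, edgeR adjusted p = 0.096). MEF2C averaged 943 ± 15.1 CPM with MS41 and 1019.4 ± 39.7 CPM with DMSO (-0.11, 0.18). RUNX1 averaged 521 ± 4.96 CPM with MS41 and 575 ± 14.4 CPM with DMSO (-0.14, 0.064). All 3 were called lower with the GC trend removed (adjusted p = 0.0017, 0.00026 and 0.0022) and without DMSO replicate 3 (0.015, 0.04 and 0.00027). CDK6 averaged 1948.5 ± 11.6 CPM with MS41 and 1976.9 ± 65.3 CPM with DMSO, a difference of -0.02 that was not called.

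MLLT1 itself, the gene of the protein that MS41 degrades, had 65.7, 67.1 and 64.4 CPM with MS41, and 71.3, 75.2 and 66.2 CPM with DMSO. The difference of -0.11 was not called (SE 0.05, edgeR adjusted p = 0.38). It passed without DMSO replicate 3 (-0.15, 0.0082) and was -0.03 (0.78) with the GC trend removed. Loss of a protein need not show in its RNA, so these values are no check of degradation. MLLT3, the gene of the related reader AF9, averaged 2.15 ± 0.176 CPM with MS41 and 2.08 ± 0.429 CPM with DMSO, and it, YEATS2 and YEATS4 were not called. Of these 4 YEATS genes 1 had an unadjusted p under 0.05 and DESeq2 called none. Of 11 tested genes of the VHL and cereblon ubiquitin ligases edgeR and DESeq2 called none, and none had an unadjusted p under 0.05. Over all genes tested 2778 of 21433 had such a p-value, and DESeq2 called 760 of 21417.

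The largest rise of a well-expressed gene was that of REEP3, which encodes a protein that shapes the endoplasmic reticulum (chromosome 10, 63521363 to 63625123, plus strand). It had 503, 527 and 507 CPM with MS41, and 128, 130 and 139 CPM with DMSO. That is a 3.87-fold difference (log2 1.95, SE 0.041, edgeR adjusted p = 2.1e-11). The next largest rise among genes above 100 CPM with MS41 was that of BMF, given below. REEP3 starts head to head with JMJD1C, a histone demethylase family gene on the other strand, which had 391, 379 and 396 CPM with MS41, and 411, 406 and 456 CPM with DMSO. JMJD1C was not called (log2 difference -0.13, adjusted p = 0.24), though it passed as lower with the GC trend removed (-0.16, 0.00085). JMJD1C-AS1, antisense within JMJD1C, had 13.2, 14.3 and 12.4 CPM with MS41, and 3.61, 3.56 and 3.36 CPM with DMSO, and rose by 1.92 (SE 0.08, edgeR adjusted p = 5.6e-08).

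A similar pair stood at CDK6. CDK6-AS1 (listed as AC002454.1, chromosome 7, 92836483 to 92917187, plus strand) starts head to head with CDK6 and had 20.7, 18.8 and 18.8 CPM with MS41, against 56.4, 53.9 and 53.1 CPM with DMSO. It fell by 1.49 (SE 0.06, edgeR adjusted p = 1.2e-08), while CDK6 was not called, as given above. At ANXA2R on chromosome 5, the gene (18.5, 20.1 and 17.3 CPM with MS41, and 44.3, 46.6 and 43.1 CPM with DMSO) fell by 1.26 and the antisense AC025171.2 by 1.12. AC025171.1, which spans both on the strand of ANXA2R, rose by 0.31 (edgeR adjusted p = 0.028), a call that held in 11 of the 16 alternatives. Without a known strand setting the reads of such overlapping genes cannot be told apart.

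Called genes lay beside each other at several loci. Of the 291, 58 lay within 100 kb of another called gene, in 50 pairs, of which 46 moved in the same direction and 12 overlapped. Pairs among 7 genes of the HOXA cluster made up 21 of the 50, and of the other 29 pairs 25 moved in the same direction. The 58 are 19.9% of the called genes, while 4.44% of the tested genes that were not called lay as near to a called gene; over all tested genes 54.3% of such pairs had the same sign. Besides the HOXA cluster these included the Toll-like receptors of innate immunity on chromosome 4. TLR10 had 21, 21.4 and 21.3 CPM with MS41, and 10.0, 10.3 and 10.4 CPM with DMSO (log2 fold change 1.05, SE 0.06, edgeR adjusted p = 7e-07). Its neighbours TLR6 and TLR1 rose by 0.54 and 0.33. TAPT1-AS1 fell by 0.87 beside TAPT1 and PROM1. BTG2, an anti-proliferative gene that p53 induces, rose by 0.62 beside FMOD (0.84). FMOD was called in 11 of the 16 alternatives. HDAC9 and TWIST1 were neighbours with opposite signs, at 0.63 and -0.29.

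Among the early B-lineage genes 7 of 39 rose and 4 fell, with a median of 0.0038. IKZF3, which encodes Aiolos, a transcription factor of later B-cell stages, had 19.7, 19.9 and 18.8 CPM with MS41, and 11.0, 10.5 and 11.4 CPM with DMSO. It rose by 0.83 (SE 0.06, edgeR adjusted p = 1.2e-05), and the groups lay far apart. BCL6, the germinal centre repressor, had 24.6, 24.5 and 25.6 CPM with MS41, against 18, 17.2 and 16.8 CPM with DMSO, and rose by 0.52 (edgeR adjusted p = 0.0002).

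FCRLA and VPREB3 rose by 0.61 and 0.53, at levels of at most 8.94 CPM, the IL-7 receptor gene IL7R by 0.35, IRF4 by 0.31 and TCL1A by 0.29. The 4 that fell were ERG (0.38), LEF1 (0.22), ARPP21 (0.21) and IKZF1 (0.19). VPREB3, TCL1A, LEF1 and IKZF1 were not among the 164 genes whose calls held without DMSO replicate 1 or 3 and with the GC trend removed. The lineage factors PAX5 and EBF1 and the surface genes CD79A and VPREB1 were not called, with log2 differences of -0.05, -0.04, 0.09 and -0.11. CD79A passed as higher with the GC trend removed (adjusted p = 0.0069), and PAX5 as lower without DMSO replicate 3 (0.034). With the GC trend removed 13 of the 39 rose and 4 fell, without DMSO replicate 1 it was 5 and 2, and without DMSO replicate 3 it was 10 and 8. Of all genes tested 2.18%, 0.543% and 5.83% rose in these settings and 2.47%, 0.247% and 7.65% fell. With all 6 libraries 0.84% rose and 0.518% fell.

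Among genes of B-cell maturation 2 of 12 rose and none fell, where 0.84% of all genes tested rose and 0.518% fell. The 2 were MZB1 (0.29) and MS4A1, which encodes CD20 and averaged 1.19 ± 0.252 CPM with MS41 and 0.522 ± 0.143 CPM with DMSO. Neither was called without DMSO replicate 1. The median of the 12 was -0.077, opposite in sign to the 2 calls.

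Immediate early genes and feedback inhibitors of MAPK signalling moved both ways, with 3 of 28 tested higher and 5 lower. EGR1, a growth-factor induced transcription factor, had 453, 434 and 422 CPM with MS41, and 308, 318 and 296 CPM with DMSO, and rose by 0.51 (SE 0.04, edgeR adjusted p = 1.3e-05). FOS rose by 0.37 and EGR3, at 1.85 ± 0.0239 CPM with MS41 and 0.801 ± 0.104 CPM with DMSO, by 1.21. DUSP6, SPRY2 and SPRY4, which damp the pathway, fell by 0.25, 0.21 and 0.24, and the immediate early genes FOSL2 and IER2 by 0.23 and 0.21. The median of the 28 was -0.071. Without DMSO replicate 1 the counts were 3 and 2, the calls of DUSP6, SPRY4 and IER2 being lost. Without DMSO replicate 3 they were 3 and 9, and with the GC trend removed 3 and 6. Of all genes tested 0.543%, 5.83% and 2.18% rose in these settings and 0.247%, 7.65% and 2.47% fell. With all 6 libraries 0.84% rose and 0.518% fell.

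BMF, which encodes a pro-apoptotic BH3-only protein, had 143, 134 and 137 CPM with MS41, and 94.8, 89.9 and 94.4 CPM with DMSO. It rose by 0.57 (SE 0.04, edgeR adjusted p = 5.1e-06) and was the 1 called gene of 15 in the BCL2 family. Of all genes tested 0.84% rose. BCL2 itself was at -0.08 and not called. SAMHD1, which hydrolyses deoxynucleotides, had 233, 240 and 238 CPM with MS41, against 169, 161 and 166 CPM with DMSO, and rose by 0.52 (edgeR adjusted p = 3.8e-06). GNAQ, a G-protein subunit and MLL-AF4 target, had 482, 473 and 492 CPM with MS41, and 324, 322 and 347 CPM with DMSO, and rose by 0.54 (SE 0.04, edgeR adjusted p = 5.1e-06). Besides GNAQ and REEP3, the targets that rose were IKZF2 (0.51) and SENP6 (0.37).

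Growth lists held few calls with all 6 libraries, where 0.84% of all genes tested rose and 0.518% fell. None of 40 MYC targets of ribosome biogenesis was called, with a median of -0.066, and 1 of 35 of metabolism and growth, CTPS1, fell (0.16; median -0.082). None of 40 S phase genes (median -0.057) and none of 35 mitosis genes (median -0.0028) was called by edgeR. In the ribosome biogenesis, metabolism, S phase and mitosis lists 14, 17, 17 and 9 genes had an unadjusted edgeR p under 0.05. Over all genes tested it was a smaller share, 2778 of 21433. DESeq2 called 4, 4, 2 and 0 members of these lists, against 760 of 21417 genes over all. Without DMSO replicate 3, 14 of 40 ribosome biogenesis, 17 of 35 metabolism, 13 of 40 S phase and 7 of 35 mitosis genes fell. In the same order 0, 1, 2 and 7 rose, where 7.65% of all genes tested fell and 5.83% rose. With the GC trend removed 6, 9, 7 and 1 fell and none rose, where 2.47% of all genes fell. The call of CTPS1 was lost without DMSO replicate 1 (adjusted p = 0.14).

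Stress and immune lists also held at most 1 call each with all 6 libraries, where 0.84% of all genes tested rose and 0.518% fell. Of 43 interferon response genes IRF1 alone was called, lower by 0.25. Of 13 MHC class II genes HLA-DRA alone was called, with 313, 319 and 327 CPM with MS41, against 292, 286 and 275 CPM with DMSO, a rise of 0.17 (edgeR adjusted p = 0.042) whose call was lost without DMSO replicate 1 (0.082). Of 32 genes of ATF4 and unfolded protein stress, PSAT1 of serine synthesis fell by 0.27. BTG2 was the 1 called gene among 27 p53 targets, ELOVL6 (0.24 higher) among 26 of lipid synthesis, ATP5F1B (0.15 lower) among 44 nuclear genes of oxidative phosphorylation and EGLN1 (0.24 lower) among 25 of hypoxia and glycolysis. ELOVL6 and ATP5F1B were not called without DMSO replicate 1 (adjusted p = 0.063 and 0.18). Without DMSO replicate 3, 8 of 14 heat shock chaperone, 18 of 44 oxidative phosphorylation, 7 of 32 stress and 10 of 25 hypoxia and glycolysis genes fell. In that setting 7.65% of all genes tested fell. With the GC trend removed 5, 9, 6 and 6 of these list members fell, where 2.47% of all genes did. The cause was not tested for these or for the growth lists. AFF3 (0.43 higher) was the 1 called gene among 29 of the MLL and elongation complexes. Among 13 MHC class I, 17 NF-kB, 14 heat shock chaperone, 43 ribosomal protein, 28 histone and 11 MYC partner genes edgeR called none. In the same order 1, 1, 6, 6, 6 and 4 had an unadjusted p under 0.05, against 2778 of all 21433 genes. DESeq2 called 1, 0, 0, 0, 0 and 1, against 760 of 21417 genes over all.

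Transcripts of the mitochondrial genome made up 3.09% ± 0.128 of counts with MS41 and 2.57% ± 0.487 with DMSO (SD, n = 3 each). The difference of 0.517 percentage points was within the spread (exact permutation test, two-sided p = 0.3; the smallest p that 3 against 3 allows is 0.1). DMSO replicate 3, at 3.13%, lay within the MS41 range of 2.98% to 3.23%, and DMSO replicates 1 and 2, at 2.37% and 2.21%, below it. All 13 mitochondrial genes had positive log2 differences (median 0.23). Neither edgeR nor DESeq2 called any, 1 had an unadjusted p under 0.05, and 11 were called higher without DMSO replicate 3. Of all genes tested 5.83% rose in that setting, and with all 6 libraries 2778 of 21433 had an unadjusted p under 0.05.

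**Figure D4:**
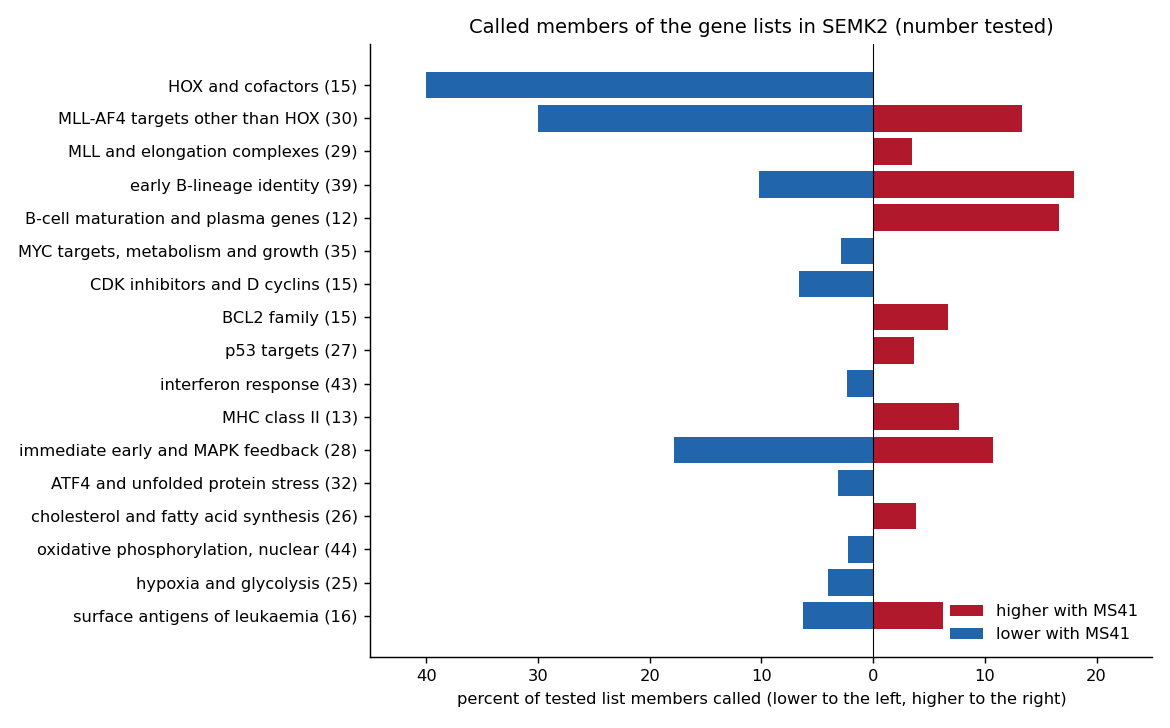
Percent of tested members of each gene list that were called in SEMK2 (horizontal axis, higher to the right and lower to the left); lists with at least 1 call are shown, with the number tested in parentheses. The HOX and cofactor list, with 6 of 15 lower, has the largest share of lower members, against 0.518% lower and 0.84% higher over all genes tested.

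By the rule for the largest changes at an average log2 CPM of at least 3, the other rises included PRICKLE2 (0.77), a planar cell polarity gene, KLRF2 (0.74), an NK-type lectin receptor gene, CLMN (0.70), HIVEP3 (0.69), KLHL14 (0.69) and SCIMP (0.65), an adaptor of Toll-like receptor and MHC class II signalling. KLRF2 had 63.0, 62.8 and 64.9 CPM with MS41, and 35.8, 36.3 and 41.8 CPM with DMSO. The other falls were GAS1 (0.71), a cell-surface gene first found in growth arrest, BAHCC1 (0.68), a reader of histone methylation, TNRC18 (0.52) and ANGPTL2 (0.51). TNRC18 had 114, 110 and 109 CPM with MS41, against 173, 165 and 138 CPM with DMSO, so DMSO replicate 3 lay nearest to the MS41 libraries.

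The effect of MS41 in SEMK2 was set against that in MV4;11 in 1 edgeR fit of all 18 libraries over 24249 genes, in which the difference between lines was itself tested. That fit shares 1 dispersion per gene between the lines (BCV, defined below, 7.59%, against 11% in SEMK2 alone). The spread of SEMK2 may therefore be understated in it. A limma voom fit with 1 weight per line (SEMK2 0.655, MV4;11 1.24) called 5625 differences at 24 h and 1850 at 6 h. Since the time in SEMK2 is not given, both MV4;11 times are shown, and a difference between lines cannot be told apart from one of time. HOXA10 fell in both lines, while MYC fell in MV4;11 and was not called in SEMK2, and REEP3 rose far more in SEMK2. Of the 180 genes higher in SEMK2, 109 (60.6%) were also called higher in MV4;11 at 24 h, where 18.6% of all genes were. Another 14 of the 180 were called lower, a share below the 18.8% of all genes. Of the 111 lower in SEMK2, 46 (41.4%) were also called lower in MV4;11 at 24 h, against 18.8% of all genes. Another 27 of the 111 were called higher, a share above the 18.6% of all genes. At 6 h the numbers called the same way were 70 (38.9%, against 8.2% of all genes) and 46 (41.4%, against 11.2%). The opposite way went 16 of the 180, a share below the 11.2% of all genes, and 15 of the 111, above the 8.2%. As shares of the MV4;11 calls these 4 overlaps were 2.42% and 1.01% at 24 h and 3.52% and 1.69% at 6 h.

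Over all genes the effect differed between lines for 6214 genes (25.6%) at 24 h and 2180 (8.99%) at 6 h. Among the 291 called in SEMK2, it differed for 173 and 116. HOXA10 was 13.1 CPM with MS41 and 37.4 CPM with DMSO in MV4;11 at 24 h, a log2 fold change of -1.51, and the difference between lines was 0.06 (SE 0.08, edgeR adjusted p = 0.67). At 6 h the MV4;11 change was -1.24 and the difference -0.21 (adjusted p = 0.1), which passed without SEMK2 DMSO replicate 3 (-0.24, 0.04). HOXA9 fell less in SEMK2 than in MV4;11, where it averaged 21.3 CPM with MS41 and 59.7 CPM with DMSO at 24 h. The difference was 0.67 (SE 0.05, edgeR adjusted p = 9.8e-10) at 24 h and 0.78 at 6 h. HOXA5, HOXA6 and HOXA7, which fell in SEMK2, averaged at most 0.0415 CPM in every MV4;11 group, so no change could be measured there, and PROM1 averaged at most 0.0112 CPM.

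MYC separated the lines. In MV4;11 it averaged 238 CPM with MS41 and 457 CPM with DMSO at 24 h, and 179 CPM with MS41 and 422 CPM with DMSO at 6 h, falling by 0.94 and 1.24. The SEMK2 effect was higher by 0.80 at 24 h and 1.1 at 6 h (SE 0.07 each, edgeR adjusted p = 2.9e-08 and 2.7e-09). MEIS1, MYB, PBX3, CDK6 and FLT3, the receptor tyrosine kinase gene, also fell in MV4;11 at both times, by 0.37 to 0.75 at 24 h. The SEMK2 effects were higher by 0.48, 0.42, 0.45, 0.34 and 0.33 at 24 h, each with an edgeR adjusted p of at most 4.4e-06. CPEB2 fell by 0.90 in MV4;11 at 24 h and the difference between lines was 0.15 (adjusted p = 0.046), a call that 7 of 11 alternatives lost; at 6 h it was 0.12 and not called.

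REEP3 rose far more in SEMK2 than in MV4;11, where it averaged 98.5 CPM with MS41 and 68.8 CPM with DMSO at 24 h (log2 0.52), and 90.4 CPM with MS41 and 94.2 CPM with DMSO at 6 h (-0.06, not called). The difference was 1.42 at 24 h and 2.00 at 6 h (SE 0.05 each, edgeR adjusted p = 1.3e-15 and 1.3e-17). For GNAQ, too, the SEMK2 effect was higher, by 0.44 at 24 h and 0.74 at 6 h. CDKN1B fell more in MV4;11, where it averaged 63.5 CPM with MS41 and 120 CPM with DMSO at 24 h, with differences of 0.46 at 24 h and 0.81 at 6 h.

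The largest differences in the other direction were of genes that rose steeply in MV4;11 at 24 h. These are among genes called in SEMK2 at an average log2 CPM of at least 3 in the fit of both lines. HLA-DRA, the MHC class II alpha chain gene, averaged 164 CPM with MS41 and 23.9 CPM with DMSO there, and 16.7 CPM with MS41 and 14.8 CPM with DMSO at 6 h. The SEMK2 effect was lower by 2.62 at 24 h (SE 0.07, edgeR adjusted p = 1.6e-16) and by 0.02 at 6 h (adjusted p = 0.95), so the reading of this gene depends on the MV4;11 time. LSP1, an actin-binding leukocyte gene, averaged 57.2 CPM with MS41 and 3.97 CPM with DMSO in MV4;11 at 24 h, a difference of -3.27, which at 6 h was 0.17 and not called. TLR6 and JAML, a leukocyte adhesion gene, differed by -2.88 and -2.85 at 24 h and by -1.48 and -0.93 at 6 h. BMF rose in both lines, to 92.5 CPM with MS41 against 23.2 CPM with DMSO in MV4;11 at 24 h, and the SEMK2 effect was smaller by 1.44 (SE 0.06, edgeR adjusted p = 1.6e-14).

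ANXA2R, which fell in SEMK2, averaged 1.01 CPM with MS41 and 0.612 CPM with DMSO in MV4;11 at 24 h, so that comparison rests on low levels. Its antisense partner AC025171.2 averaged 4.55 CPM with MS41 and 2.39 CPM with DMSO there, a rise of 0.92 and a difference of -2.06 (SE 0.15). CDK6-AS1 fell in both lines, by 2.23 in MV4;11 at 24 h and 1.05 at 6 h, and JMJD1C-AS1 was not called at 24 h (-0.26) and fell by 0.71 at 6 h in MV4;11, with differences between lines of 2.17 and 2.61. TLR10 averaged 2.82 CPM with MS41 and 0.303 CPM with DMSO in MV4;11 at 24 h, a rise of 3.19.

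**Figure D5:**
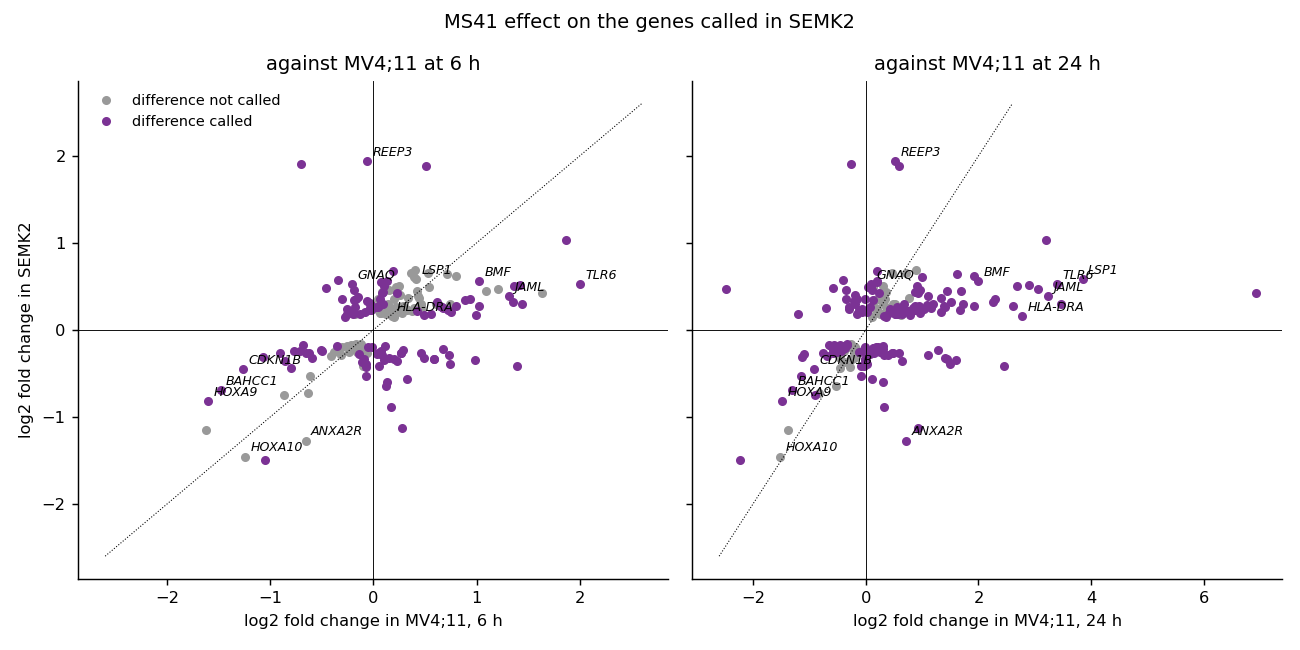
Log2 fold change of MS41 over DMSO in SEMK2 (vertical axis) against that in MV4;11 at 6 h (left) and 24 h (right) for the 204 of 291 genes called in SEMK2 that averaged at least 1 CPM in some MV4;11 group; the dotted line marks equal effects and purple points a called difference. HOXA10 lies on the line, REEP3 lies far above it, and HLA-DRA moves from near the line at 6 h to 2.77 on the MV4;11 axis at 24 h.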

How the data were processed

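The deposited values are counts per gene for each library. Per the submitters' processing notes, CASAVA 1.8, HISAT2 2.1.0 and HTSeq 0.11.3 with build hg38 were used; their settings, the strand setting among them, are not given in the sources used here. Of 58721 gene identifiers, 58676 matched GENCODE 29. Every column of the SEMK2 table matched a label.

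From the counts, genes with low counts were removed by filterByExpr, libraries were scaled by TMM, and edgeR 4.0.16 fitted the robust quasi-likelihood model to the 6 SEMK2 libraries (biological coefficient of variation, BCV, 11%, 4 residual degrees of freedom) and, for the difference between lines, to 18 libraries (BCV 7.59%). Standard errors and intervals of 95% come from these fits. The GC trend is a smooth curve of log2 level on the GC share of each gene's longest transcript, removed per library. DESeq2 1.42.0, limma 3.58.1, R 4.3.3, Python 3.11.15 and matplotlib 3.10.9 were also used. Tested on simulated data for the SEMK2 comparison over 21433 genes, the fit recovered 82% of 1.25-fold, 98% of 1.5-fold and 100% of 2-fold changes, with 12 false calls. The changed genes were drawn from better-expressed genes only. The simulated libraries had no GC trend and no transcripts particular to 1 library, so these rates need not hold for the real libraries.

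Named genes were MLLT1, all measured HOX, MLL-AF4 target and YEATS genes, the 12 largest rises and the 12 largest falls. Up to 4 called members of each other list and some B-lineage genes were also named. So were the 6 largest differences from MV4;11 in each direction. These were taken among genes called in SEMK2 at an average log2 CPM of at least 3 in the fit of both lines. The 12 rises and falls are of genes at that level in the SEMK2 fit whose groups did not overlap and whose call held without DMSO replicate 1 or 3 and with the GC trend removed. Of these differences, those of genes averaging under 1 CPM in both MV4;11 groups compared (SPRY4, ZNF704 and TWIST1 at 24 h, LPAR6 and GAS1 at 6 h) are not reported, a limit set after seeing the data. A few other genes that these rules name are not reported here. ERG, SAMHD1, TLR1, EGR3, MS4A1, the neighbours of named genes and the other called list members given by value alone were chosen after their values were seen. The members and the 34 gene lists were chosen with earlier results of these data known. Correlations of same-numbered libraries were -0.04, 0.39 and 0.35, and those of differently numbered ones -0.49 to 0.30. The first were not all above 0.1, so replicate numbers were not used to pair the samples. The labels and these values do not settle whether the samples were paired.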

Additional observations from a re-analysis of the deposited data

Results flagged for a closer look

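These results were picked out because the effect of MS41 differed between SEMK2 and MV4;11 by edgeR's test of the difference itself; values are the SEMK2 minus the MV4;11 log2 fold change, and line and treatment time cannot be told apart.

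At 24 h the SEMK2 effect was higher for REEP3 (1.42), UGT3A2 (1.39), STON1 (1.06), ABHD15 (0.82), MYC (0.80), HOXA9 (0.67), MEIS1 (0.48), CDKN1B (0.46), PBX3 (0.45), IKZF2 (0.45), GNAQ (0.44), MYB (0.42), BCL11A (0.38), CDK6 (0.34), FLT3 (0.33), MEF2C (0.28), SATB1 (0.21) and CPEB2 (0.15). It was lower for LSP1 (-3.27), SLC8A1 (-3.16), TLR6 (-2.88), JAML (-2.85), HLA-DRA (-2.62) and TAPT1 (-0.49). UGT3A2 averaged 0.488 CPM with MS41 and 1.14 CPM with DMSO in MV4;11, so its value rests on low levels. ABHD15 fell in both lines, by 0.30 in SEMK2 and by 1.14 in MV4;11 at 24 h. STON1 rose by 0.49 in SEMK2 and fell by 0.58 in MV4;11. TAPT1 fell in SEMK2 and rose by 0.24 in MV4;11.

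At 6 h the SEMK2 effect was higher for REEP3 (2.00), MYC (1.1), STON1 (0.94), CDKN1B (0.81), BAHCC1 (0.79), HOXA9 (0.78), ABHD15 (0.75), GNAQ (0.74), MYB (0.66), MEIS1 (0.64), PBX3 (0.58), SATB1 (0.53), BCL11A (0.50), FLT3 (0.44), MEF2C (0.35) and CDK6 (0.33). It was lower for TLR6 (-1.48), AC025171.2 (-1.41), SLC8A1 (-1.14), IL1RN (-1.13) and TAPT1 (-0.32). IL1RN, the interleukin-1 receptor antagonist gene, fell by 0.38 in SEMK2 and rose by 0.74 in MV4;11 at 6 h.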

How the results depend on the processing

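The count of 291 calls (180 higher, 111 lower) moved by more than 1.5 times in most settings, the cause of which was not tested. It was 760 (415, 345) with DESeq2, 912 (425, 487) with no filter on low counts, 997 (467, 530) with the GC trend removed, and 1960 (711, 1249) with DMSO replicate 2 as the only DMSO library, which is assumed to vary like the MS41 group. With the GC trend removed it was 650 (359, 291) without DMSO replicate 1 and 1738 (727, 1011) without DMSO replicate 3; the second was chosen after seeing the data. With a replicate block it was 662 (333, 329), and with block and GC trend removal 1089 (503, 586). Whether replicate numbers pair these libraries is not known, and the correlations do not all favour the same number. Leaving out 1 library gave 100 to 2986 calls, 69 to 1292 higher and 31 to 1694 lower. Size factors of DESeq2 and removal of genes of a single library gave 296 and 292.

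The total counts of differences between lines stayed within 1.5 times; the 1099 lower at 6 h became 1693 without DMSO replicate 3. The mitochondrial difference of 0.517 points ranged from 0.338 (without DMSO replicate 2) to 0.795 (without DMSO replicate 3). Directions turned for genes near 0 that were not called: with 1 library left out PBX3 ranged from -0.029 to 0.0076, CDK6 from -0.045 to 0.0042, MLLT3 from -0.082 to 0.21 and YEATS4 from -0.071 to 0.0021. With DMSO replicate 2 as the only DMSO library PBX3 was 0.0176, CDK6 0.0303 and CD79A -0.0137. With GC trend removed and DMSO replicate 3 left out MLLT3 was -0.0523 and YEATS2 0.0024. A level of 1 CPM stands for about 155.9 counts in the smallest library, so depth limits the genes well below that level.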

Other observations

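Other called genes were chosen for this paragraph after their values were seen. CXCR3, a chemokine receptor gene, rose by 1.88 and RGS4, a G-protein signalling inhibitor gene, by 2.39, both at an average log2 CPM below 0. CEACAM6, a surface antigen of some B-precursor leukaemias, fell by 1.44 and GPR84, a fatty acid receptor gene, by 0.78. ARID5B, a gene tied to lymphoid leukaemia, rose by 0.48, ZEB1 by 0.50 and ERBB2, which lies beside IKZF3, by 0.44. ARID5B, ATP2B4 (0.43) and SAMHD1, described above, were among the well-expressed genes that rose.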
